A study of Mus musculus with 12 samples.

Results

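Polycomb repressive complex 1 subunits were followed in germinal vesicle oocytes that lacked one or both of its catalytic proteins. The set was a list of 32 subunit genes of the canonical and variant complexes, found by symbol or older synonym in the mouse annotation of the array: Ring1, Rnf2, Cbx2, Cbx6, Cbx7, Cbx8, Pcgf1, Pcgf2, Pcgf3, Bmi1, Pcgf5, Pcgf6, Phc1, Phc2, Phc3, Rybp, Yaf2, Kdm2b, Scmh1, Scml2, Bcor, Bcorl1, L3mbtl2, Mga, Max, E2f6, Auts2, Fbrs, Fbrsl1, Usp7, Skp1 and Tfdp1. All 32 were found, and 30 of them had a probe set that named no other gene and were tested, among 21092 genes tested in all. Cbx6 and Scml2 were represented only by probe sets that also name neighbouring or similar genes, so their values cannot be given to 1 gene. Kdm2b, Fbrsl1 and Skp1 stand in the annotation as Fbxl10, 2410025L10Rik and Skp1a.

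Fully grown oocytes, held at the germinal vesicle stage in prophase of the first meiotic division, came from females of 5 to 10 weeks on a mixed 129/Sv and C57BL/6J background, 46 h after a hormone injection of 5 U PMSG, and were collected with 2.5 µM milrinone, which keeps them from resuming meiosis. Each of 4 genotypes had 3 samples of 50 oocytes, pooled from several mice and hybridised to Affymetrix whole-transcript arrays after amplification. The control was Ring1+/+Rnf2F/F, with both alleles of Rnf2 floxed but no Cre. The Ring1 mutant was Ring1-/-Rnf2F/F, the Rnf2 mutant Ring1+/+Rnf2F/FZp3-cre and the double mutant Ring1-/-Rnf2F/FZp3-cre. Every genotype therefore carried the floxed Rnf2 alleles, and Cre was present only where Rnf2 was deleted, so that an effect of the Cre transgene and of Rnf2 loss cannot be told apart. The Zp3 promoter drives Cre in growing oocytes, whereas the Ring1 null alleles are carried by every cell of the female. The labels call the samples biological replicates. Whether some females gave oocytes to more than 1 pool is not stated, so that p-values here reflect differences among pools, which may be partly technical.

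Polycomb repressive complex 1 adds ubiquitin to histone H2A at silent developmental genes through RING1 or RNF2, related RING-type E3 ligases that stand in for each other in a complex. Each ligase pairs with a PCGF protein, and that partner decides the kind of complex. Canonical complexes hold PCGF2 or BMI1 together with a CBX protein, which reads trimethylated histone H3, a Polyhomeotic protein (PHC) and a Sex comb on midleg homologue. Variant complexes hold RYBP or YAF2 in place of CBX: PRC1.1 is built on PCGF1 with KDM2B, which binds unmethylated CpG islands, and the corepressors BCOR or BCORL1, PRC1.3 and PRC1.5 on PCGF3 and PCGF5, and PRC1.6 on PCGF6 with the sequence-specific factors MGA, MAX and E2F6. In the growing oocyte the ligases take part in setting up the store of transcripts and the chromatin handed to the embryo.

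Values are log2 intensities of the deposited table, which look normalized between arrays. A gene was called in a comparison at an adjusted p below 0.05 in limma, with Benjamini-Hochberg adjustment over all genes, and "rose" and "fell" are used of called genes only. Array medians lay between 3.81 and 3.93, and arrays of 1 genotype correlated between 0.996 and 0.997 across genes. As a floor for genes without transcript, the 95th percentile of 1047 olfactory receptor genes was taken, which was 3.84. Of the 30 tested subunits 28 had a mean above it, and Ring1 and Pcgf2 did not. Oocyte markers were high on all 12 arrays: 13 of 14 were measured, all 13 lay above the floor, and their mean per array ran from 10.64 to 10.67 in the double mutants and from 10.77 to 10.83 on the other 9 arrays. Granulosa and cumulus cell markers were measured for 15 of 16, of which 7 to 9 lay above the floor in a genotype, and blood cell markers for 7 of 8, of which 2 did. Because the arrays lie on a nearly common scale and no count of RNA per oocyte is known, lower RNA per cell and fewer contributing cells cannot be told apart.

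Rnf2, on chromosome 1, was the most strongly lowered subunit. On its single probe set the controls read 8.33, 8.44 and 8.23 log2 and the Ring1 mutants 8.43, 8.53 and 8.43. Values dropped to 5.60, 5.93 and 6.04 with Cre alone and to 5.90, 5.68 and 6.01 in the double mutants, so that all 6 arrays of genotypes with Cre lay below all 6 without it, yet above the floor. Against control, Rnf2 fell by 2.48 ± 0.11 log2 (SE, n = 3 arrays per genotype, limma, adjusted p = 5.4e-07) in the Rnf2 mutant and in the double mutant it fell by 2.47 ± 0.11 (limma, adjusted p = 1e-08). Its level in the Ring1 mutant differed from control by 0.13 ± 0.11, which was not called (limma, adjusted p = 0.77). Ring1, on chromosome 17, gave a signal at the floor in every genotype. Its single probe set read 3.85, 3.87 and 3.80 in the controls, 3.88, 3.63 and 3.86 in the Ring1 mutants, 3.92, 3.92 and 3.92 in the Rnf2 mutants and 3.99, 3.50 and 3.87 in the double mutants. The groups with and without the null alleles overlapped, and the change in the Ring1 mutant was -0.05 ± 0.11 (limma, adjusted p = 0.92). The positions of the probes relative to the deleted or floxed parts were not used here, so this signal gives no check of the Ring1 genotype and no measure of what Ring1 does in the Rnf2 mutant.

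The double mutant against control asks how the other subunits are expressed when both ligase genes are disrupted. Of 30 tested subunits 8 rose and 4 fell, together 12, where 31.6% of all genes were called. Of all genes 14.2% rose and 17.5% fell. Among the risers were the corepressor gene Bcor, by 2.75 log2, the canonical genes Phc3 and Cbx8, by 1.17 and 0.995, and Pcgf5, Mga, E2f6, Bcorl1 and Kdm2b, by 0.95 to 0.16. The falls were Rnf2 itself, Pcgf3, Phc1 and Pcgf1, the last 3 by 0.34 to 0.21. Without Ring1 and Rnf2, 11 of 28 were called, or 39.3%. Most subunits lie above the floor, and when only genes above it were tested 13 of 28 subunits were called against 51.3% of 12313 genes. With arrays centred on their most abundant 25% of genes, which moved the median change of all genes from -0.04 to 0.07 log2, 11 subunits rose and 1 fell, and of all genes 4567 rose and 2256 fell in place of 2994 and 3681. With quantile normalization 11 subunits rose and 2 fell, and of all genes 3320 rose and 3286 fell. The median change of the 30 subunits was -0.02 log2 and their median absolute change 0.15, against -0.04 and 0.15 for all genes. Cell type markers moved in the same comparison. Of 13 oocyte markers 5 fell and 1 rose (median change -0.09), Figla with -0.89 and Mos with -0.51 among the falls, and with centring on the most abundant genes 4 fell and 3 rose (median 0.02). Of 15 granulosa markers 2 fell and none rose (median -0.37), though 2 rose with centring on the most abundant genes. The falls were Cyp19a1 with -0.78 and Kitl, whose means of 3.41 in the controls and 3.04 in the double mutants lay below the floor. Of 7 blood markers 2 rose, C1qb by 1.05 (limma, adjusted p = 1.5e-05) and Cd68, and none fell, while the median was -0.03 and Ptprc, Lyz2 and Cd52 were below the floor. The part of these markers in the subunit values was not tested. The 18 subunits not called changed by -0.16 to 0.18, and the outermost bounds of their 95% intervals were -0.33 and 0.36.

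**Figure D1:**
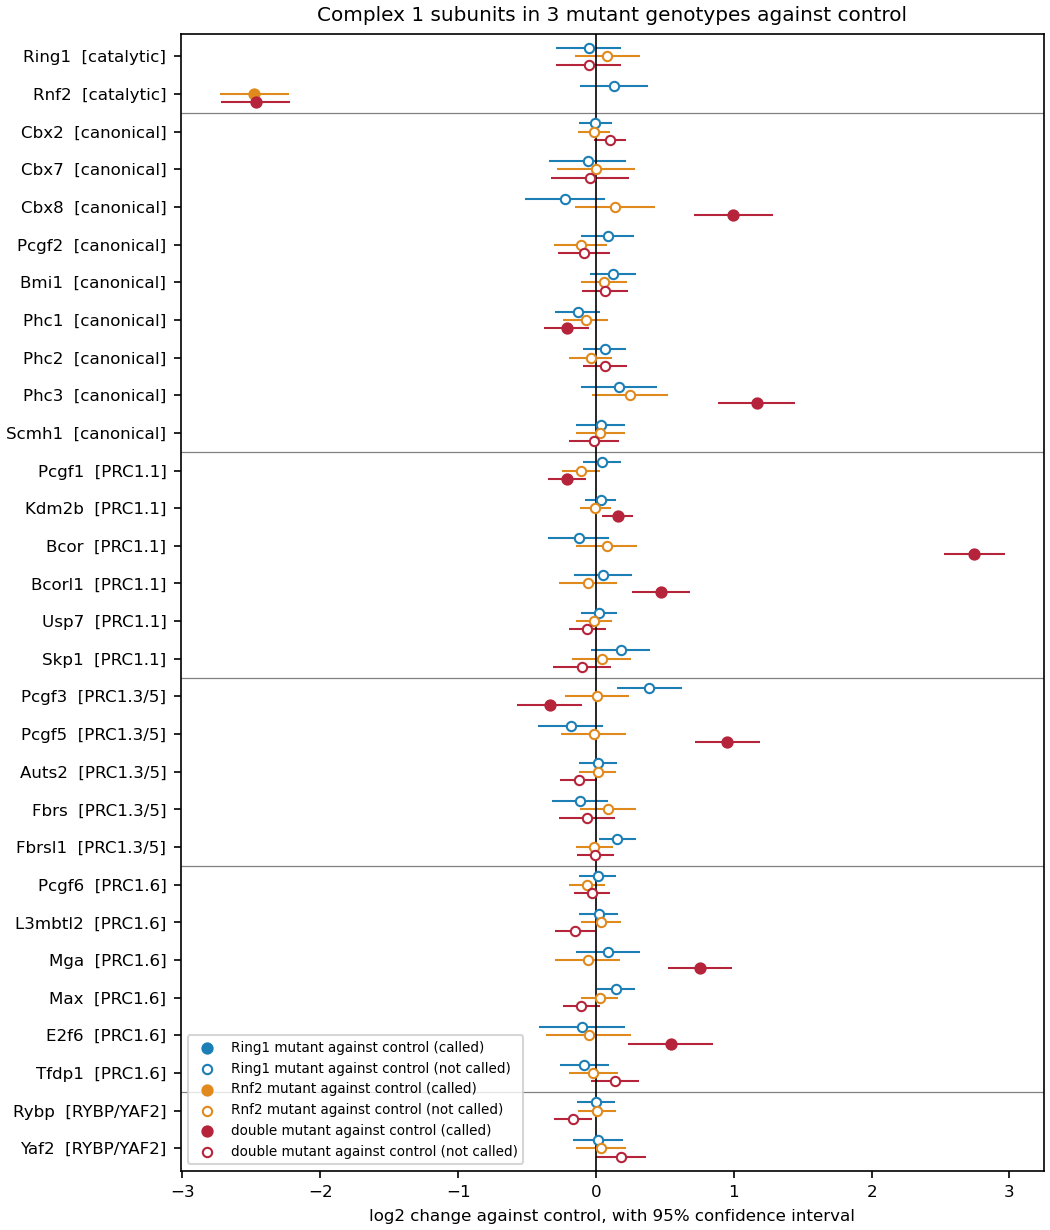
Log2 change against control of the 30 tested subunits in the Ring1 mutant, the Rnf2 mutant and the double mutant (x axis), with 95% confidence intervals and n = 3 arrays per genotype, filled where limma's adjusted p was below 0.05. Subunits are ordered by class on the y axis; the filled points away from 0 are those of the double mutant and Rnf2 in the Rnf2 mutant, and Bcor lies farthest to the right at 2.75.

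By class, 3 of 9 tested canonical subunits (33.3%) and 8 of 19 variant subunits (42.1%) were called in that comparison. The share was 31.6% over all genes, and 51.3% when only genes above the floor were tested. Canonical subunits had a median change of 0.06, with Cbx8 and Phc3 up and Phc1 down, and variant subunits a median of -0.03, with 6 up and 2 down. Within the variant complexes, 4 of 6 genes of PRC1.1, 2 of 5 of PRC1.3 and PRC1.5 and 2 of 6 of PRC1.6 were called, and neither Rybp nor Yaf2. These counts are over few genes, and no difference between the classes was tested. The rises were found in both classes, and in the fit used throughout the direction depended on the gene in both. The falls depended on scaling. With centring on the most abundant genes 3 canonical and 8 variant subunits rose and none fell. With quantile normalization 3 canonical subunits rose and none fell, and 8 variant subunits rose and 1 fell. With arrays centred on their medians 2 canonical subunits rose and 1 fell, and 5 variant subunits rose and 3 fell.

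The promoters of the 4 subunit genes with the largest rises are shown as background, since the complex is known to gather at CpG-rich promoters. Each window holds the 250 bases before an annotated transcription start (RefSeq, build GRCm38.p6, in the direction of the gene), with every CpG dinucleotide in capitals. Bcor (chrX:12160356-12160605, minus strand) holds 16 CpG, Phc3 (chr3:30969416-30969665, minus) 12, Cbx8 (chr11:119040914-119041163, minus) 22 and Pcgf5 (chr19:36348079-36348328, plus) 23. For Bcor and Pcgf5, which have several starts in the table, the most 5′ one is given.
Bcor: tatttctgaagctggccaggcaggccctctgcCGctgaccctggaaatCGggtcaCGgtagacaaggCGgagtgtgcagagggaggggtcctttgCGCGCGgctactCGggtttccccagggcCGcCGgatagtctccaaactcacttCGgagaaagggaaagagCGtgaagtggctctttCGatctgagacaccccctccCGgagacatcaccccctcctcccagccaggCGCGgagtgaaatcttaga
Phc3: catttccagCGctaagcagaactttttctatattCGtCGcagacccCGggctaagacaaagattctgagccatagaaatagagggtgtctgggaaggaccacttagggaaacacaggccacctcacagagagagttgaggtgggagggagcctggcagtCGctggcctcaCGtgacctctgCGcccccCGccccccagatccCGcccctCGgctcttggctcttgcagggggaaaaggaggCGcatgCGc
Cbx8: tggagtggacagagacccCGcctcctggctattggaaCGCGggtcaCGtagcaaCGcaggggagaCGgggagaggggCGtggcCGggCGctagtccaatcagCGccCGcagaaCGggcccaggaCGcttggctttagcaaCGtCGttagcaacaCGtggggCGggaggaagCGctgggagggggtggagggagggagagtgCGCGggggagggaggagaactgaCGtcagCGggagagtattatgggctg
Pcgf5: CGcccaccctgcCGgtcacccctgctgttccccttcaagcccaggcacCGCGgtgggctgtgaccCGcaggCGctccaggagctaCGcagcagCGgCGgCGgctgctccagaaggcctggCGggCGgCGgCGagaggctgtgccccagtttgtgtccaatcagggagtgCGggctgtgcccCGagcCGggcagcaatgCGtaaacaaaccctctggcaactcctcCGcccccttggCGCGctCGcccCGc
The sequence table held 38 windows for 27 of the 32 subunits, with a median of 20 CpG and an observed to expected CpG ratio of 0.73. All 32851 windows of 27025 genes had medians of 6 and 0.37. Of the 4 windows shown, those of Bcor and Phc3 held fewer CpG than the subunit median and those of Cbx8 and Pcgf5 more. Subunit windows ran from 0 CpG, at a start of Scmh1, to 55, in Usp7, and neither gene was called. Whether CpG content goes with the rises was not tested. The E-box CACGTG, the kind of site that MGA and MAX bind, was searched on both strands, which read the same, and stood in 8 of the subunit windows (21.1%) against 6.02% of all windows. It stood in Cbx8, Phc3 and Bcorl1, which rose in the double mutant, and in Bmi1, Cbx6, Pcgf2, Phc2 and Tfdp1, of which Cbx6 was not tested by gene and the others were not called. The E2F-type motif GCGGGAA, searched on both strands which like the E-box holds a CG, stood in 2 windows (5.26%, Pcgf5 at another start and Scmh1) against 3.82% of all windows. Both motifs hold a CG and the subunit windows hold more CpG, so the shares of windows are not matched for base composition. A match here is a stretch of letters, and binding was not measured.

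Among the canonical subunits, Phc3, a Polyhomeotic protein that joins complexes to each other through its SAM domain, read 6.09, 6.58 and 6.20 log2 in the controls, 6.45, 6.66 and 6.27 in the Ring1 mutants, 6.44, 6.55 and 6.64 in the Rnf2 mutants and 7.35, 7.54 and 7.49 in the double mutants. The double mutants lay above all 9 other arrays. The rise was 1.17 ± 0.13 log2, or 2.24-fold (95% interval 0.89 to 1.44 log2, limma, adjusted p = 1.9e-05). A second probe set of Phc3 was also higher in the double mutant, with 5.14, 5.33 and 5.32 against 4.85, 4.95 and 4.73 in the controls, by 0.42 ± 0.11 (limma over all probe sets, adjusted p = 0.016). The size of the rise therefore depended on the probe set, while its direction was shared.

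Cbx8 encodes a chromodomain protein of the canonical complex. It read 4.82, 4.94 and 4.51 in the controls, 4.78, 4.43 and 4.38 in the Ring1 mutants and 5.01, 4.97 and 4.70 in the Rnf2 mutants, against 5.79, 5.64 and 5.83 in the double mutants. The 3 double mutants again lay above all other arrays, with a rise of 0.995 ± 0.13 log2 over control (95% interval 0.71 to 1.28, limma, adjusted p = 8.9e-05). The other measured CBX genes changed less. Cbx2 kept a mean of 9.02 to 9.14 in all genotypes and, although its 3 double mutants lay above every other array, its change of 0.10 ± 0.05 was not called (limma, adjusted p = 0.18). It was called at 0.20 with quantile normalization (limma, adjusted p = 0.013) and at 0.22 with centring on the most abundant genes (limma, adjusted p = 0.0095). Cbx7, which read 5.03 to 5.09 on average, changed by -0.05 ± 0.13 (limma, adjusted p = 0.84). The probe set that names Cbx6 together with Npcd and Nptxr read 3.48, 3.25 and 3.71 in the controls, below the floor, and 4.05, 3.83 and 3.95 in the double mutants, a difference of 0.46 ± 0.12 (limma over all probe sets, adjusted p = 0.017) that belongs to any of the 3 genes.

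**Figure D2:**
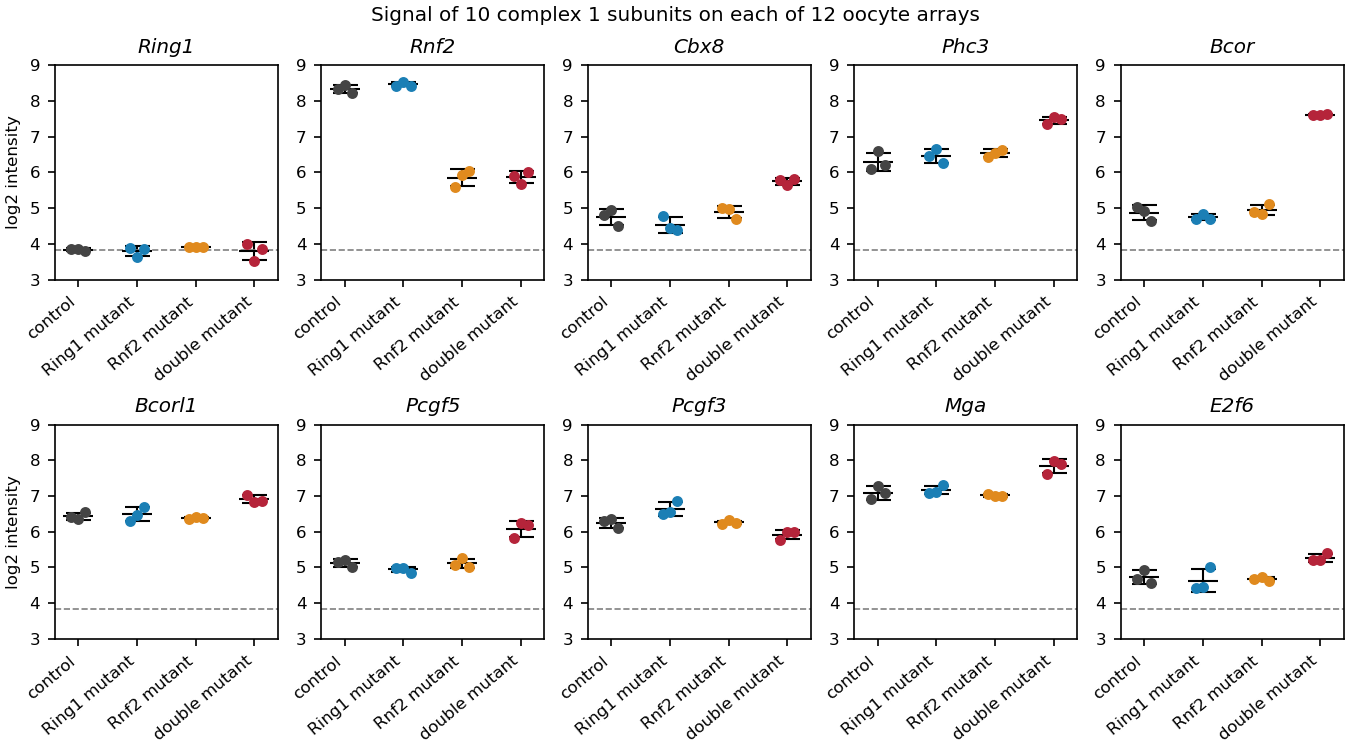
Log2 intensity of each array (points, n = 3 per genotype) and the genotype mean ± SD (bars) for Rnf2, Ring1 and subunits with a change of at least 0.5 log2 in some comparison, with the floor of 3.84 as a dashed line. For Bcor, Phc3, Cbx8, Pcgf5, Mga, E2f6 and Bcorl1 the 3 double mutants lie above the other 9 arrays, for Pcgf3 below them, and for Ring1 the genotypes overlap.

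Phc1, a Polyhomeotic paralogue of Phc3, moved the other way. Its controls read 7.73, 7.61 and 7.71 and its double mutants 7.61, 7.33 and 7.48, a fall of 0.21 ± 0.07 log2 at the edge of the threshold (limma, adjusted p = 0.047). The lowest control and the highest double mutant differed by less than the rounding of these values, and the call was kept in 6 of 22 alternative settings. It was lost without control 1, control 3, double mutant 2 or double mutant 3, and without any single array of the other genotypes. Phc2 changed by 0.07 ± 0.07 and was not called. Among the remaining canonical subunits, Bmi1, one of the PCGF proteins of these complexes, had a high mean of 10.11 ± 0.14 (SD, n = 3) in the controls and changed by 0.06 ± 0.08, and Scmh1 changed by -0.02 ± 0.08. Pcgf2, the paralogue of Bmi1, read 3.25 to 3.73 on all 12 arrays, below the floor. The probe set naming Scml2 and a similar locus read 8.10, 8.06 and 8.01 in the controls and 7.96, 8.01 and 7.97 in the double mutants, a difference of -0.08 that was not called (limma over all probe sets, adjusted p = 0.52).

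In PRC1.1, Bcor showed the largest change of the 30 tested subunits in the double mutant, Rnf2 included. BCOR is an X-linked corepressor that binds PCGF1. Bcor read 5.04, 4.92 and 4.64 in the controls, 4.68, 4.84 and 4.70 in the Ring1 mutants and 4.89, 4.84 and 5.10 in the Rnf2 mutants, and then 7.60, 7.60 and 7.63 in the double mutants. The 9 arrays of the other genotypes lay between 4.64 and 5.10. The rise over control was 2.75 ± 0.10, or 6.70-fold (95% interval 2.53 to 2.96 log2, limma, adjusted p = 1.6e-09). Its X-linked relative Bcorl1 read 6.41, 6.35 and 6.54 in the controls, 6.30, 6.48 and 6.68 in the Ring1 mutants and 6.34, 6.42 and 6.38 in the Rnf2 mutants, and 7.04, 6.83 and 6.85 in the double mutants. That was a rise of 0.47 ± 0.10 (limma, adjusted p = 0.0022), again with no overlap.

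The other PRC1.1 genes changed little. Pcgf1, the PCGF protein of this complex, read 9.61, 9.62 and 9.50 in the controls and 9.41, 9.35 and 9.35 in the double mutants and fell by 0.21 ± 0.06 (limma, adjusted p = 0.023). Kdm2b read 9.64, 9.54 and 9.58 against 9.73, 9.74 and 9.76 and rose by 0.16 ± 0.05 (limma, adjusted p = 0.037). Without control 2, double mutant 2 or double mutant 3 neither was called. The call of Pcgf1 was also lost without control 1, and that of Kdm2b without control 3, double mutant 1, Ring1 mutant 1 or 2, or Rnf2 mutant 1. Usp7, a deubiquitinase found with this complex, and Skp1, a ubiquitin ligase adaptor that binds KDM2B, changed by -0.06 ± 0.06 and -0.10 ± 0.10 and were not called.

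In PRC1.3 and PRC1.5 the defining PCGF genes, close relatives of each other, moved in opposite directions. Pcgf5 read 5.16, 5.20 and 5.01 in the controls, 4.98, 5.00 and 4.85 in the Ring1 mutants, 5.06, 5.25 and 5.02 in the Rnf2 mutants and 5.82, 6.23 and 6.18 in the double mutants. It rose by 0.95 ± 0.11 log2 over control (95% interval 0.72 to 1.19, limma, adjusted p = 2.6e-05). Pcgf3 read 6.30, 6.36 and 6.09 in the controls, 6.49, 6.56 and 6.87 in the Ring1 mutants, 6.22, 6.31 and 6.24 in the Rnf2 mutants and 5.77, 5.98 and 6.00 in the double mutants. Here the Ring1 mutants were the highest arrays and the double mutants the lowest, with no overlap between either and the controls. The fall in the double mutant was 0.34 ± 0.11 (limma, adjusted p = 0.03). It was not called without control 1, without control 2 or without double mutant 1. The call was also lost with centring on the most abundant genes, at -0.22 (limma, adjusted p = 0.13). With every probe set fitted on its own it was lost as well (limma, adjusted p = 0.054). Auts2, Fbrs and Fbrsl1, related subunits of these complexes, changed by -0.13, -0.06 and -0.01 and were not called.

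In PRC1.6, the genes of the DNA-binding subunits MGA and E2F6 rose. Mga, whose protein pairs with MAX at E-boxes, read 6.90, 7.27 and 7.08 in the controls, 7.10, 7.11 and 7.30 in the Ring1 mutants, 7.063, 6.996 and 7.004 in the Rnf2 mutants and 7.63, 7.98 and 7.90 in the double mutants, a rise of 0.75 ± 0.11 (limma, adjusted p = 0.00016). E2f6, a repressor of the E2F family, read 4.67, 4.94 and 4.56 in the controls, 4.43, 4.44 and 5.00 in the Ring1 mutants, 4.67, 4.73 and 4.61 in the Rnf2 mutants and 5.21, 5.19 and 5.39 in the double mutants. It rose by 0.54 ± 0.14 (limma, adjusted p = 0.011). In both genes the double mutants were above every other array. The other genes of this complex were not called. Max changed by -0.11 ± 0.06 (limma, adjusted p = 0.23), Tfdp1, the dimerisation partner of E2F proteins, by 0.14 ± 0.08 (limma, adjusted p = 0.24), Pcgf6 by -0.03 ± 0.06 (limma, adjusted p = 0.78), and L3mbtl2, a reader-type MBT protein of this complex, by -0.15 ± 0.07 (limma, adjusted p = 0.1). Tfdp1 was called as higher with quantile normalization, by 0.24 (limma, adjusted p = 0.036), and with centring on the most abundant genes, by 0.25 (limma, adjusted p = 0.029), and L3mbtl2 as lower with a variance trend (limma, adjusted p = 0.047).

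Rybp and Yaf2, whose proteins take the place of CBX in variant complexes, were not called in the fit used throughout. Rybp read 9.21, 9.25 and 9.23 in the controls and 9.11, 8.99 and 9.10 in the double mutants, which lay below all 9 other arrays, and changed by -0.16 ± 0.06 (limma, adjusted p = 0.071). Its second probe set gave -0.29 ± 0.12 (limma over all probe sets, adjusted p = 0.13). Rybp was called as lower in 4 alternatives: with the mean of its probe sets (limma, adjusted p = 0.021), with genes above the floor only (0.033), with arrays centred on their medians (0.04) and with a variance trend (0.015). Yaf2 changed by 0.18 ± 0.08 (limma, adjusted p = 0.12), and was called at 0.27 with quantile normalization (limma, adjusted p = 0.024) and at 0.30 with centring on the most abundant genes (limma, adjusted p = 0.016). Counted by arrays rather than by the test, 9 of 30 subunits had all 3 double mutants above all 9 other arrays, where 13.2% of all genes did, and 5 had them below, where 16.0% did. The 9 were the 8 that rose and Cbx2.

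**Figure D3:**
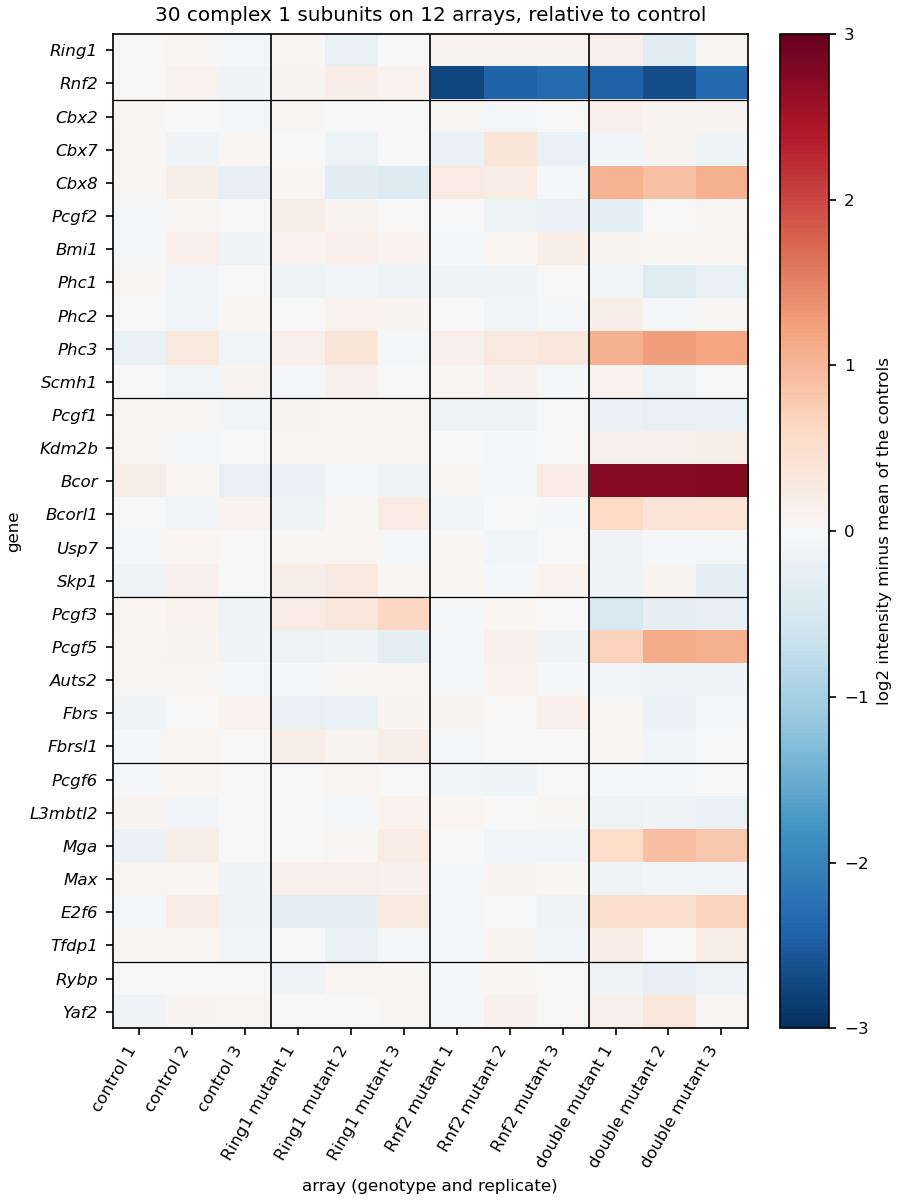
Log2 intensity minus the mean of the controls for the 30 tested subunits (rows, grouped as catalytic, canonical, PRC1.1, PRC1.3 and PRC1.5, PRC1.6, and Rybp with Yaf2) on the 12 arrays (columns); red is higher and blue lower than control, with the colour scale from -3 to 3. The blue cells of Rnf2 cover all 6 arrays with Cre, and the deep red cells of Bcor the 3 double mutants only.

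The single mutants ask what the loss of 1 ligase does to the remaining subunits, and none of them was called. In the Ring1 mutant none of 30 subunits was called, where 0.773% of all genes were. At an unadjusted p below 0.05 limma gave 3, Fbrsl1, Max and Pcgf3, that is 3 of 30 against 10.6% of all genes, and no other setting tried called any. Changes ran from -0.22 to 0.39. Pcgf3 was the largest, 0.39 ± 0.11 higher with no overlap of the arrays (limma, adjusted p = 0.16), and 5 of 30 subunits had arrays that did not overlap, against 16.6% of all genes. In the Rnf2 mutant Rnf2 alone was called, where 0.137% of all genes were. The largest change of another subunit there was 0.25, of Phc3, and no adjusted p but that of Rnf2 was under 0.8. Besides Rnf2, 1 subunit had arrays of the Rnf2 mutant apart from the controls, Ring1, by 0.08 at the floor, and 12.2% of all genes had non-overlapping arrays.

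The double mutant was also set against each single mutant. These comparisons share the double mutant arrays with each other and with the comparison to control, so they are given side by side and not as independent evidence. Against the Ring1 mutant, which differs by Rnf2 deletion and the Cre transgene, 7 subunits rose and 5 fell, 12 of 30 where 31.3% of all genes were called, 14.7% up and 16.6% down. The rises were Bcor by 2.87, Cbx8 by 1.22, Pcgf5 by 1.13, Phc3 by 0.9996, Mga by 0.67, E2f6 by 0.64 and Bcorl1 by 0.42. Rnf2 fell by 2.60, Pcgf3 by 0.73 (limma, adjusted p = 0.00022), Skp1 by 0.28, Pcgf1 by 0.26 and Max by 0.25 (limma, adjusted p = 0.0078). When arrays were centred on their most abundant genes, 11 subunits rose and 2 fell, and of all genes 4125 rose and 2214 fell in place of 3105 and 3493. With quantile normalization 11 subunits rose and 5 fell, and of all genes 3349 rose and 3247 fell. The larger fall of Pcgf3 here than against control goes with its higher values in the Ring1 mutants. The call of Skp1 (limma, adjusted p = 0.046) was kept in 9 of 22 alternative settings, and among the single arrays only leaving out control 1, control 2, Ring1 mutant 3 or double mutant 2 kept it. Max read 8.39, 8.39 and 8.36 in the Ring1 mutants, 8.29, 8.29 and 8.13 in the controls and 8.10, 8.15 and 8.15 in the double mutants.

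Against the Rnf2 mutant, which differs by the Ring1 null alleles, 8 subunits rose and 2 fell, where 29.9% of all genes were called, 13.7% up and 16.2% down. The 8 rises were those found against control, led by Bcor with 2.67, and ran down to Kdm2b with 0.16. Pcgf3 fell by 0.35 (limma, adjusted p = 0.027) and L3mbtl2 by 0.19 (limma, adjusted p = 0.046), but when arrays were centred on their most abundant genes 12 subunits rose and none fell, and of all genes 4313 rose and 2103 fell in place of 2888 and 3412. The call of L3mbtl2 was lost without any 1 of the 12 arrays except control 1, control 2 and Ring1 mutant 3, and that of Pcgf3 without any single Rnf2 mutant or double mutant 1. The call of Kdm2b was lost without any 1 array of the genotypes compared. Rnf2 differed between these groups by 0.01 ± 0.11 and was not called (limma, adjusted p = 0.97). Granulosa cell markers moved with this comparison: their mean per array ran from 4.83 to 5.16 in the Rnf2 mutants and from 4.09 to 4.75 in the double mutants, and of 15 measured 1 rose and 7 fell. In the controls that mean ran from 4.46 to 4.98 and in the Ring1 mutants from 4.20 to 4.68, so it was lower in the double mutants than in the Rnf2 mutants while the 8 subunit genes were higher. The part of these markers in the subunit values was not tested.

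The interaction asks whether Rnf2 loss acts differently with and without Ring1, as the change from Ring1 mutant to double mutant minus the change from control to Rnf2 mutant. It was called for 9 of 30 subunits, 7 higher and 2 lower, where 18.7% of all genes were called, 9.79% higher and 8.93% lower. When only genes above the floor were tested, it was called for 9 of 28 subunits against 33.5% of 12313 genes. With centring on the most abundant genes 7 subunits were higher and 1 lower, and of all genes 2712 were higher and 1242 lower in place of 2065 and 1883. Bcor had the largest, 2.79 ± 0.14 (limma, adjusted p = 1.1e-07), since Rnf2 loss moved it by 2.87 without Ring1 and by 0.08 with it. For Pcgf5 the interaction was 1.15 (limma, adjusted p = 0.00022), for Cbx8 1.08 (limma, adjusted p = 0.0015) and for Phc3 0.75 (limma, adjusted p = 0.012). Mga had 0.73, E2f6 0.69 and Bcorl1 0.48. The lower side held Pcgf3, with -0.73 (limma, adjusted p = 0.0046), and Max, with -0.28 (limma, adjusted p = 0.044). Not all of these calls were firm. That of Bcorl1 was lost without control 3, Ring1 mutant 1 or 2, Rnf2 mutant 1 or 3, or double mutant 1. That of E2f6 was lost without control 2, Ring1 mutant 1 or 2, Rnf2 mutant 1 or 3, or double mutant 3. That of Max was kept in 7 of 21 alternative settings, and among the single arrays only leaving out control 1, control 2 or Rnf2 mutant 1 kept it.

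**Figure D4:**
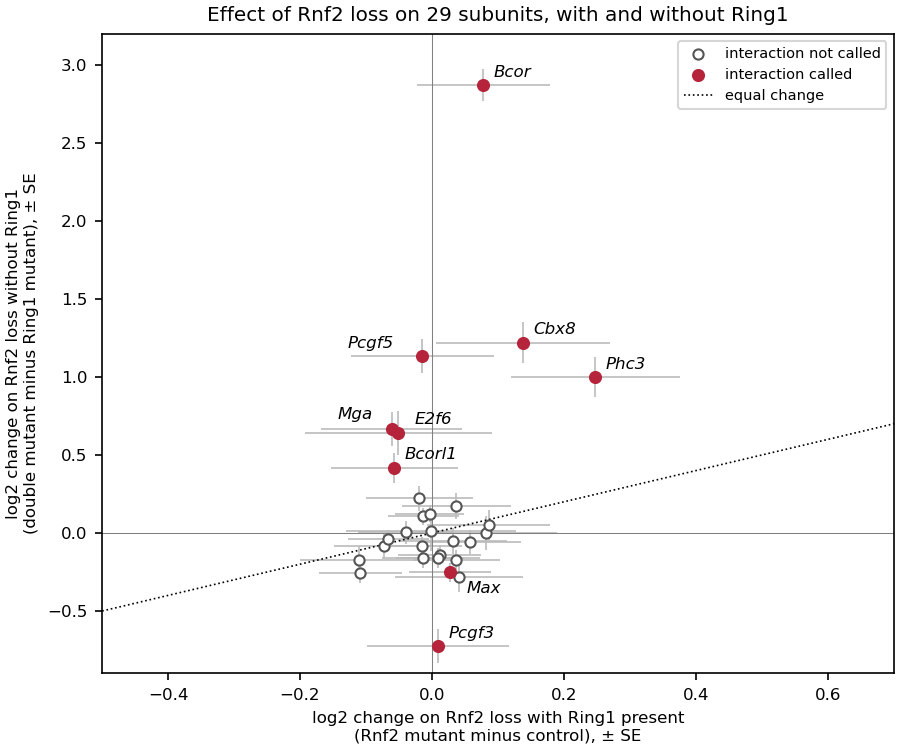
Effect of Rnf2 loss on the 29 tested subunits other than Rnf2, with Ring1 present (x axis, Rnf2 mutant minus control, log2) and without it (y axis, double mutant minus Ring1 mutant, log2), with standard errors and n = 3 arrays per genotype, on axes of different scale. Filled points have a called interaction; Bcor, at 0.08 on the x axis and 2.87 on the y axis, lies farthest from the dotted line of equal change.

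Further lists of 11, 13 and 8 genes place these values among related genes in the double mutant against control. Of 11 partner proteins of variant complexes 4 rose and none fell, each by 0.25 log2 or less: the histone deacetylase gene Hdac1, the casein kinase 2 subunit gene Csnk2a2, the E2F partner gene Tfdp2 and the histone H3 lysine 9 methyltransferase gene Ehmt2, whose control mean of 3.82 lay below the floor. Of all genes 14.2% rose and 17.5% fell. With arrays centred on their medians 1 partner rose and 1 fell, with quantile normalization 3 rose, and with centring on the most abundant genes 6 rose and none fell. Polycomb repressive complex 2, which places the histone mark that CBX proteins read, had 2 of 13 genes up and 7 down with a median of -0.20, though with centring on the most abundant genes 4 rose and 2 fell. The largest of its changes was that of Ezhip, an inhibitor of the complex, which fell by 0.65 ± 0.10 (limma, adjusted p = 0.00035), followed by Epop, up by 0.53 ± 0.12 (limma, adjusted p = 0.0052), and Eed, a core subunit, down by 0.34 ± 0.07 (limma, adjusted p = 0.0027). Among 8 genes of H2A deubiquitinases, which remove the mark that the ligases place, none rose and 4 fell, Asxl2 by 0.34, Mysm1 by 0.28, Bap1 by 0.23 and Usp22 by 0.20, while centring on the most abundant genes gave 1 up and 1 down.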

How the data were processed

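RNA of pooled oocytes was amplified as cDNA and hybridised to whole-transcript arrays, 12 in all, with 3 per genotype as the labels assign them. The deposited table held 1 log2 intensity per probe set and array, which the authors made with R 2.10.0 and the affy package, per the submitters' processing notes. Background correction and probe summarization were steps not given in the sources used here. The deposited annotation gave 1 gene for 22827 of the 34760 probe sets, and only these were tested by gene. Symbols were updated through RefSeq names of GRCm38.p6. Gene numbers matched 19536 of them, symbols 915, older symbols 653 and accessions 171, and 1552 kept their name. For 1022 genes with several probe sets, the one with the highest mean stood for the gene.

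With limma 3.58.1 (lmFit and eBayes, under R 4.3.3) 1 model with a mean for each genotype was fitted to the 12 arrays together, with Benjamini-Hochberg adjustment over 21092 genes in each of 6 comparisons. The fit was tested on simulated data. The simulation changed few genes and held no shift of scale between arrays, so it does not bear on the choice of scaling. No detection calls were used, and precision is limited by how many arrays there were: the median standard error was 0.08 log2 for the subunits. The members, the gene lists and the classes were chosen with earlier results of these data known. Values on every array are given for Ring1, Rnf2 and each member with a called change of at least 0.5 log2. Per-array values of other members were chosen after they were seen. Alternatives covered probe sets, a filter on dim genes, scaling, variance models, the replicate number as a block and leaving out each array. The labels do not pair samples by replicate number. Same-numbered samples' deviations from their genotype means correlated at -0.16 to 0.21. Between control and double mutant these correlations were 0.06, 0.21 and 0.14, against -0.15 to 0.01 for samples of different number. Deviations cancel within a genotype, so the values for same and different numbers are not independent of each other. Whether the number marks a shared step was not tested, and a fit with it as a block is given below.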

Additional observations from a re-analysis of the deposited data

Results flagged for a closer look

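For 9 subunits the effect of Rnf2 loss differed between oocytes with and without Ring1, by the interaction term of the limma fit (adjusted p below 0.05 over all genes, n = 3 arrays per genotype). That is 9 of 30 tested, where 18.7% of all genes were called. With only genes above the floor tested, it was 9 of 28 subunits against 33.5% of 12313 genes. The difference, in log2, was 2.79 for Bcor, 1.15 for Pcgf5, 1.08 for Cbx8, 0.75 for Phc3, 0.73 for Mga, 0.69 for E2f6 and 0.48 for Bcorl1. It was -0.73 for Pcgf3 and -0.28 for Max. The call of Max was kept in 7 of 21 alternatives, and those of E2f6 and Bcorl1 in 14 of 21 each.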

How the results depend on the processing

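In the double mutant against control, Rnf2, Bcor, Bcorl1, Cbx8, Phc3, Pcgf5, Mga and E2f6 were called in the same direction under all 22 alternatives, Bcor with 2.63 to 2.86 log2 and E2f6 with an adjusted p of up to 0.048 (limma). The calls of Kdm2b, Pcgf1, Pcgf3 and Phc1 were lost in some, and in some Cbx2, Tfdp1 and Yaf2 were called as higher and Rybp and L3mbtl2 as lower. Leaving out 1 array in turn gave 9 to 11 called subunits in the double mutant against control, where 27.3 to 31.4% of all genes were called. It gave 11 to 13 against the Ring1 mutant (26.6 to 31% of all genes) and 7 to 10 against the Rnf2 mutant (25.4 to 29.6%). It gave 6 to 9 for the interaction (15.8 to 17.4% of all genes), 0 in the Ring1 mutant (0.318 to 0.787%) and 1 in the Rnf2 mutant (0.0474 to 0.156%). The replicate numbers pair no samples by the labels, and 14 of 36 comparisons of an array with another genotype found its best correlation at its own number. Each of these comparisons had 3 numbers to choose from. With the replicate number as a block, the fit called 10 subunits in the double mutant against control (31% of all genes, Kdm2b and Phc1 lost). It called 12 against the Ring1 mutant (30.4% of all genes) and 8 against the Rnf2 mutant (29%, Kdm2b and L3mbtl2 lost). For the interaction it called 8 (17.6% of all genes, Max lost), with 0 in the Ring1 mutant (0.626%) and 1 in the Rnf2 mutant (0.0853%). Fitting every probe set on its own gave 9 subunits in the double mutant against control and 6 for the interaction. There 21.7% and 11.3% of 34760 probe sets were called. No subunit's called change reversed its direction in any alternative, and the causes of the lost calls were not tested. Genes near the floor, Ring1 and Pcgf2 among them, are limited by their signal over background.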
